A study of Mus musculus with 20 samples.

Results

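Toll-like receptors are pattern recognition receptors of the innate immune system, and 10 mouse receptor genes were followed here: the endosomal receptors Tlr3, Tlr7, Tlr8, Tlr9 and Tlr13 and the cell-surface receptors Tlr1, Tlr2, Tlr4, Tlr5 and Tlr6. They were taken by gene symbol from a table of 55866 genes, and all 10 passed the filter on low counts in every comparison. All mice were female RiboTagEC mice on a C57BL/6J background (Rpl22 with a hemagglutinin tag, HA, released by Cdh5-driven CreERT2), all received 75 mg/kg of tamoxifen for 5 days from 3 weeks of age, and all carried Py8119 murine mammary tumors implanted at 8 weeks. Tumors were treated for 10 days with 25 mg/kg of 6-3-A6, an antibody against Notch4, or with control mouse IgG, starting at a volume of 30 mm3 in the methods and 50 mm3 in the series description. From each of 10 tumors, 5 per treatment, the whole homogenate (input) and the HA immunoprecipitate (IP), which is enriched for ribosome-bound mRNA of Cdh5-Cre cells, were sequenced. Markers of other cell types were still found in IP, as given below.

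Endosomal receptors bind nucleic acids that reach the lumen of endosomes, whereas surface receptors bind lipids, lipoproteins and flagellin of microbes. The receptors signal through the adaptors Myd88 and Ticam1 to NF-kB and interferon regulatory factors, and most of them are best known from macrophages and dendritic cells. Endothelial cells are also known to carry some of them, in particular Tlr4 and Tlr3.

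Between 11881214 and 26728205 reads were counted per library (median 16942643), so that 3 counts, the limit that a count of 0 allows, came to at most 0.252 CPM (counts per 1000000 counts) before scaling. The study's own comparison used the IP libraries of control IgG tumors 2, 4 and 5 and of 6-3-A6 tumors 1, 3 and 4. It left out the other 4 as outliers in a principal component analysis of the IP libraries. The paper describes a clearer separation of the treatment groups after this step. Several libraries stood apart from the others of their group by the median chi-square of the counts of a gene in 2 libraries. In 6-3-A6 input it was 3.99 to 6.29 among tumors 1 to 3, 10.9 to 19.4 between these and tumor 5, and 26.8 to 42.9 between tumor 4 and all others. In 6-3-A6 IP it was 3.55 to 8.22 among tumors 1, 3 and 4 and 10.4 to 15.1 for pairs with tumor 2 or 5, and in control IgG IP it reached 24.7 between tumors 1 and 5. Tumor 5 of the 6-3-A6 group also differed in its markers. Its T cell markers had a mean log2 CPM of 5.41 in input and 4.46 in IP, where the other tumors reached at most 3.96 and 2.78, and its macrophage markers were the highest of all in each fraction (8.39 and 7.93). In the 6-3-A6 samples, a description line names the opposite fraction from the title; the titles were followed, and all 17 endothelial markers were higher in the libraries titled IP.

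Receptor levels were compared with each other per kilobase of exon. On this scale, Tlr2, which pairs with Tlr1 or Tlr6 to bind bacterial lipoproteins, was the most abundant receptor in control IgG IP at 24.8 ± 7.54 CPM per kb (SD, n = 5). It was followed by Tlr4, the receptor for lipopolysaccharide, at 18.0 ± 4.61, by Tlr13, a sensor of bacterial ribosomal RNA, at 15.4 ± 3.82, and by Tlr3, a sensor of double-stranded RNA, at 11.1 ± 2.48. Tlr8, Tlr1 and Tlr7 came next between 10.8 and 8.79 CPM per kb, and Tlr9, Tlr6 and Tlr5 were lowest between 3.29 and 1.75. Means of neighbors in this order lay within their SDs of each other, with the exception of Tlr7 and Tlr9.

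In control IgG input the order opened with Tlr2 at 28.5 ± 4.78 CPM per kb (SD, n = 5) and Tlr13 at 23.99 ± 6.23, and in 6-3-A6 input Tlr13 and Tlr2 stood at 27.8 ± 7.86 and 26.4 ± 8.41. Tlr3 was the seventh in both input groups and the fourth in both IP groups. Summed per kb of exon, the endosomal receptors made up 48.9% ± 5.44 of the signal of all 10 receptors in control IgG input, 51.9% ± 2.76 in 6-3-A6 input, 46.2% ± 3.48 in control IgG IP and 47.2% ± 2.04 in 6-3-A6 IP (SD, n = 5 each). By this measure the endosomal share was close to that of the surface receptors in every group. By the listed span described next it was lower, with 40.4% ± 3.18 in control IgG IP. The ranges of the share per kb of exon overlapped between all groups.

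The table lists each receptor with the length of its whole genomic span, so introns were counted along with exons. For Tlr4 the span is 102701 bases and the exons cover 5556, and its level in control IgG IP divided by the span is 0.976 CPM per kb. The place of Tlr4 near the top of the order therefore depends on the length used. The same applies to Tlr9 near the bottom, which at 2.67 CPM per kb of span was the fifth, above Tlr8 and Tlr7. Tlr1 and Tlr6, 18467 bases apart on chromosome 5, and Tlr7 and Tlr8, 40599 bases apart on chromosome X, are pairs of similar genes. Any reads shared within a pair would leave their single values less certain, and such reads were not measured.

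**Figure D1:**
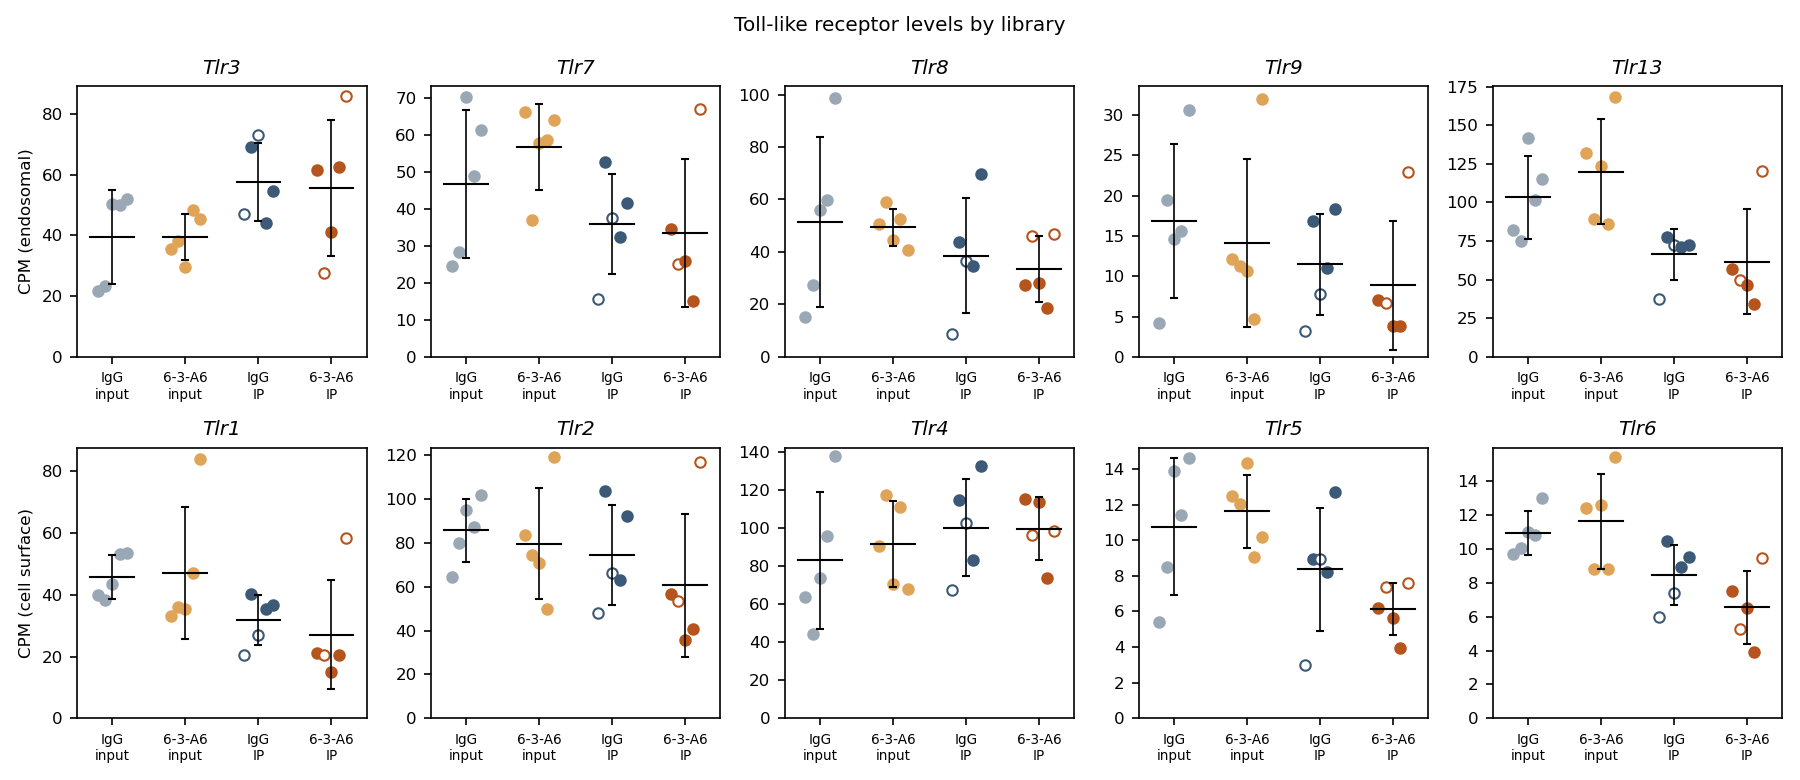
CPM of each receptor in the 20 libraries (vertical axis, scaled by TMM factors, from 0), with 1 point per library, a bar at the mean and whiskers of 1 SD (n = 5). Filled IP points are the libraries the study kept and open IP points those it left out, and the higher open point in 6-3-A6 IP is tumor 5 for each of the 10 receptors.

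Whether the receptors belong to the endothelial fraction was addressed by IP against input over all 20 libraries. Of the 10 receptors, Tlr3 alone was called higher in IP, and Tlr13, Tlr1, Tlr5 and Tlr6 were called lower. Over all 13582 genes tested, 41.2% were called at an adjusted p under 0.05, 19.8% higher and 21.4% lower in IP. The 17 endothelial markers, in contrast, were all called higher with a median log2 fold change of 4.36. In bulk fractions, fewer cells of a type and less RNA per cell cannot be told apart.

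Tlr3 (chromosome 8, 45848702 to 45864117, positions of GRCm39) measured 21.8, 23.4, 50.3, 50.1 and 52.2 CPM in control IgG input and 35.7, 38.3, 29.5, 48.3 and 45.3 in 6-3-A6 input, in the order of the tumor numbers. In IP it measured 47.1, 69.0, 73.0, 44.2 and 54.7 CPM in control IgG tumors and 61.6, 27.5, 41.2, 62.7 and 86.1 in 6-3-A6 tumors. The fractions overlapped, and the lowest IP value came from 6-3-A6 tumor 2. Within tumors, IP exceeded input in 8 of 10, by log2 ratios of up to 1.56, and was lower in control IgG tumor 4 and 6-3-A6 tumor 2. IP differed from input by a log2 fold change of 0.52 (SE 0.20, edgeR adjusted p = 0.0412).

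Tlr3 was the only receptor called higher, and this call was close to the threshold. It was lost when any of 11 of the 20 libraries was left out, with log2 fold changes of 0.42 to 0.60 over all omissions, and with only the 6 retained tumors (0.47, adjusted p = 0.116). With the tumor as a block, which pairs the IP and input of the same animal, it was 0.51 (SE 0.17, adjusted p = 0.0208). The mean of the endothelial markers exceeded input by a log2 ratio of at least 2.73 in every tumor, above the highest Tlr3 ratio.

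Tlr4 (chromosome 4, 66745821 to 66848521) also had a value above 0, and its IP differed from input by 0.19 on the log2 scale (SE 0.18, adjusted p = 0.400). IP was higher than input in 6 of 10 tumors and lower in 4, with log2 ratios from -0.59 to 1.37. With the tumor as a block the value was 0.23 (SE 0.16, adjusted p = 0.245).

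The promoters of Tlr3, Tlr9 and Tlr1 are shown because Tlr3 was the receptor called higher in IP, while Tlr9 and Tlr1 had the lowest adjusted p values between treatments described further on. RefSeq (GRCm38.p6) windows of 250 bases before to 50 bases after a transcript start were found for 8 of the 10 receptors, all but Tlr4 and Tlr7, and gave 10 windows. Capitals mark GAGGAA, the core recognized by PU.1, a transcription factor of myeloid cells, on either strand. The windows are Tlr3 at chr8:45410331-45410630 (minus strand), Tlr9 at chr9:106222348-106222647 (plus strand) and Tlr1 at chr5:64933509-64933808 (minus strand), each read 5′ to 3′ on the strand of the gene.
Tlr3: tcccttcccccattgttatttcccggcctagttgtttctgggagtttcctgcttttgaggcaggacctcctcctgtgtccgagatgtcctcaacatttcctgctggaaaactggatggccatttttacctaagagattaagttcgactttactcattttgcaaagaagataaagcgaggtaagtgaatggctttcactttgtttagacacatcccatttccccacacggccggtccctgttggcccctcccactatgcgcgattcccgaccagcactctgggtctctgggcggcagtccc
Tlr9: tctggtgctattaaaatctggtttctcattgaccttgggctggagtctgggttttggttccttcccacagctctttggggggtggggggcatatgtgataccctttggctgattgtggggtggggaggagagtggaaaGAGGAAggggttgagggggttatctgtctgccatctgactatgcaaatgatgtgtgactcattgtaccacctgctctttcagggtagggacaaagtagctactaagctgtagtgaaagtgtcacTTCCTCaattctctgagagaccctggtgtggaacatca
Tlr1: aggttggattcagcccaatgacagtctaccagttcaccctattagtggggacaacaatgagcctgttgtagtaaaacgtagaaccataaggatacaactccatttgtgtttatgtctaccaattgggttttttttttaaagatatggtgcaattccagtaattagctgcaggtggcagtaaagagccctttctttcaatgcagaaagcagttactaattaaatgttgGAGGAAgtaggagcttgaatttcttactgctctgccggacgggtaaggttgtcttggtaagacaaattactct
Tlr9 has a match beginning 112 bases before the start and another, on the opposite strand, beginning 12 bases after it, and the Tlr1 window shown has 1 beginning 23 bases before it. A second Tlr1 window, at chr5:64932650-64932949, has none and is not shown. The Tlr3 window has none. Of the 10 receptor windows 4 held a match (Tlr1, Tlr8, Tlr9 and Tlr13), and of all 32851 promoter windows 28.3% did. The core bound by interferon regulatory factors, GAAA repeated after a gap of any 2 bases, occurred in 1 receptor window (Tlr6, with 2 overlapping matches) and in 3.44% of all windows. A match is a run of letters and not a measured binding site.

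Among the endosomal receptors, Tlr13 (chromosome X, 105186810 to 105204099) fell most clearly in IP. It measured 82.2, 75.1, 142, 102 and 115 CPM in control IgG input and 37.2, 77.8, 72.5, 71.4 and 72.6 in control IgG IP. In 6-3-A6 tumors it measured 132, 89.5, 124, 86.0 and 168 CPM in input and 56.9, 49.9, 46.3, 34.0 and 120.5 in IP. IP was lower than input in 9 of 10 tumors, the exception being control IgG tumor 2, and the log2 fold change was -0.81 (SE 0.20, adjusted p = 0.00364).

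Tlr7 and Tlr8, both sensors of single-stranded RNA, differed between IP and input by log2 fold changes of -0.57 (SE 0.25, adjusted p = 0.0732) and -0.49 (SE 0.30, adjusted p = 0.187). Each was lower in IP in 8 of 10 tumors, with control IgG tumor 2 and 6-3-A6 tumor 5 as the exceptions for both. Tlr9, the sensor of unmethylated CpG DNA, was lower in IP in all 10 tumors, by log2 ratios between -1.43 and -0.20, while its fold change without pairing was -0.62 (SE 0.39, adjusted p = 0.209) and ranged from -0.95 to -0.36 with single libraries left out. Its level varied widely among tumors, from 4.18 to 32.04 CPM in input.

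Of the surface receptors, Tlr1 and Tlr6 had log2 fold changes of -0.66 (SE 0.22, adjusted p = 0.0223) and -0.60 (SE 0.17, adjusted p = 0.00656). Tlr5, the flagellin receptor, had -0.65 (SE 0.22, adjusted p = 0.0230), and Tlr2 had -0.30 (SE 0.20, adjusted p = 0.229). Each of these 4 receptors was lower in IP in 9 of 10 tumors and above input in 1. The Tlr1 call was lost without the input of 6-3-A6 tumor 5 (-0.51, adjusted p = 0.0524). Other omissions added calls, so that 4 to 7 receptors were called among 5112 to 6205 genes over the 20 omissions. Without 6-3-A6 IP 5, Tlr7 (-0.75, adjusted p = 0.0182), Tlr9 (-0.95, adjusted p = 0.0474) and Tlr2 (-0.47, adjusted p = 0.0377) were called lower, and Tlr7 was also called without control IgG input 1, control IgG input 2 or control IgG IP 2. Without 6-3-A6 input 4 the number of receptors called stayed at 5.

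When each tumor's IP was set against its own input as a block, 9 receptors were called, with Tlr3 higher and the 8 others lower, and 7120 genes (52.4%) were called in all. The added receptors were Tlr9 at -0.66 (SE 0.12, adjusted p = 0.000479), Tlr7 at -0.65 (adjusted p = 0.0152), Tlr8 at -0.53 (adjusted p = 0.0157) and Tlr2 at -0.36 (adjusted p = 0.0152). With the 6 retained tumors, 3 receptors were called, Tlr13, Tlr1 and Tlr5, among 24.4% of all genes, and all 10 kept their direction.

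Macrophage markers were also lower in IP. In all 10 tumors the mean log2 CPM of the macrophage list was lower in IP than in input, by 0.27 to 0.97. Of 12 tested markers, 8 were called lower, with a median log2 fold change of -0.68, where 21.4% of all genes were. This was not particular to macrophages, since the T cell, neutrophil, dendritic cell and B cell lists were likewise lower in IP in every tumor. The fibroblast, epithelial and plasmacytoid dendritic cell lists were lower in some tumors and higher in others. The summed level of the macrophage list ranged from 6824 to 15716 CPM in input and from 3515 to 9506 CPM in IP, and Itgam, one of its 13 genes, is listed at 0. The endothelial list summed to between 1262 and 7292 CPM in IP, so that IP was enriched in endothelial mRNA and not free of macrophage markers. Over the 10 tumors, 7 receptors had median log2 ratios between -0.91 (Tlr13) and -0.61 (Tlr9), where the macrophage mean had -0.63, and Tlr2, Tlr3 and Tlr4 had higher medians (-0.45, 0.51 and 0.22). The part of macrophage RNA in the receptor values was not tested.

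**Figure D2:**
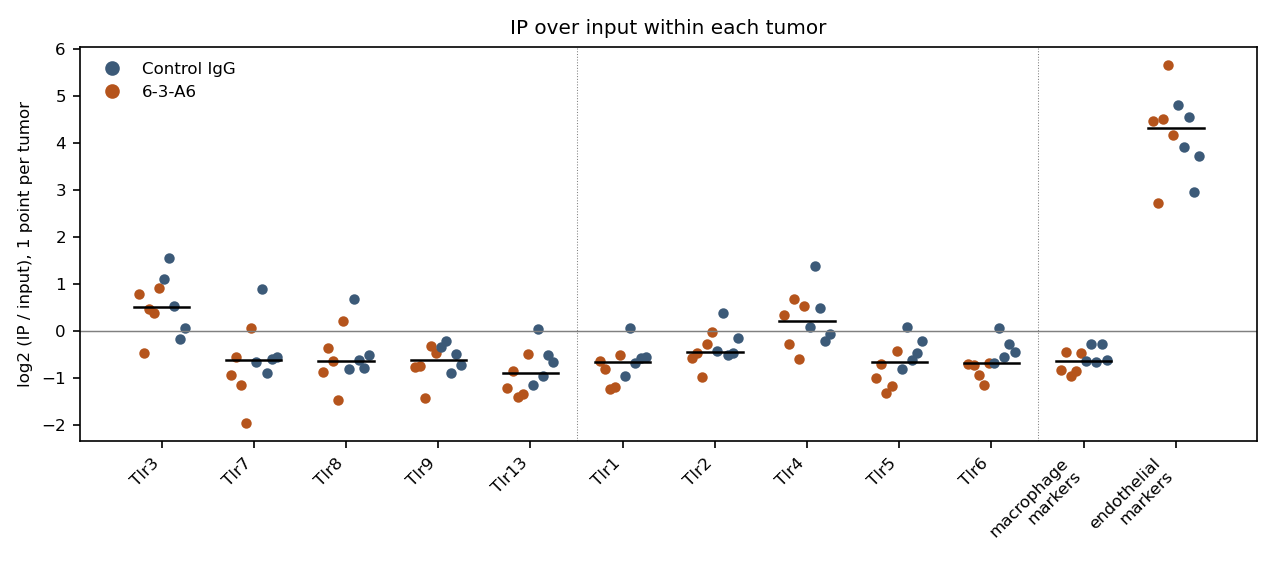
Log2 ratio of IP over input within each tumor (vertical axis, log2 CPM difference) for the 5 endosomal receptors, the 5 surface receptors and the means of the macrophage and endothelial marker lists, with 1 point per tumor and a bar at the median. Tlr9 and the macrophage mean are below 0 in all 10 tumors, Tlr3 is above 0 in 8 of 10, and the endothelial mean lies between 2.73 and 5.66.

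Within each treatment, the same contrast called 0 receptors in control IgG tumors, where 11.4% of 14488 genes were called, and 3 receptors in 6-3-A6 tumors (Tlr13, Tlr5 and Tlr6, all lower), where 26.3% of genes were called and 13.5% were called lower. Tlr13 alone of the 10 had an unadjusted edgeR p under 0.05 in control IgG tumors (0.0399), as had 26.3% of all genes, and DESeq2 also called 0 there. With each tumor as a block, the calls came to 3 receptors in control IgG tumors (Tlr9, Tlr13 and Tlr1, all lower), where 22.4% of genes were called, and to 7 in 6-3-A6 tumors (all lower, with Tlr3, Tlr4 and Tlr8 not called), where 38.3% were called. The difference between treatments was itself tested as an interaction. Its log2 values for the receptors ranged from -0.56 (Tlr5) to -0.04 (Tlr3), and edgeR called 0 receptors and 0 genes (0%), as did DESeq2. An unadjusted p under 0.05 was found for 125 genes (0.863%) and 0 receptors. With the tumor as a block, edgeR again called 0 receptors and 0 genes (0%), and 140 genes (0.966%) had an unadjusted p under 0.05, Tlr6 among them (-0.47, SE 0.22, unadjusted p = 0.0499, adjusted p = 1). The ratios of IP over input of Tlr6 did not overlap between treatments, at -1.16 to -0.69 in the 5 6-3-A6 tumors and -0.69 to 0.055 in the 5 control IgG tumors, which was the case with 6-3-A6 lower for 0.152% of genes. This gene was singled out after its values were seen, its nearest ratios lay at -0.693 and -0.689, and the ratios of the other 9 receptors overlapped.

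Genes around the receptors differed in where their mRNA was found. In IP against input over all 20 libraries, 21.4% of all genes were called lower and 19.8% higher. Of 12 coreceptors and chaperones, 7 were called lower in IP, among them the Tlr4 coreceptor Cd14 (-0.65, adjusted p = 0.0220), the Tlr4-like receptor Cd180 (-0.75, adjusted p = 0.0435), its partner Ly86 (-0.87, adjusted p = 0.0336) and the folding chaperones Hsp90b1 and Cnpy3. Cd36, a lipid receptor that assists Tlr2 and is carried by endothelial cells, was called higher at 2.56 (SE 0.41, adjusted p = 4.74e-05). Of the endosomal proteases and nucleases, which process receptors and nucleic acids, 6 of 8 tested were called lower and 0 higher.

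Downstream of the receptors, calls were made in both directions. Of 14 signaling kinases and ligases, 3 were called higher (Ikbkb at 1.17, Tbk1 at 0.63 and Irak2 at 0.37) and 3 lower (Irak1 at -0.83, Traf3 at -0.53 and Map3k7 at -0.27), shares close to the 19.8% and 21.4% of all genes. Of 9 negative regulators, 4 were called higher, led by Sigirr at 1.97 (SE 0.28, adjusted p = 1.09e-05), an inhibitory receptor of this family, and 2 lower. Of 10 tested inflammatory target genes, 8 were called lower, with Tnf at -1.13 and Il1b at -0.74, while Nos2, the inducible nitric oxide synthase, was higher at 2.12 (SE 0.40, adjusted p = 0.000286) and Il6 at 1.40. Il6 varied widely in control IgG IP, from 1.53 to 42.5 CPM (mean 11.7 ± 17.3, SD, n = 5). In 6-3-A6 tumors its mean was 4.71 CPM in IP and 2.71 CPM in input.

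Myd88, the adaptor of all these receptors but Tlr3, is listed at 0 counts in all 20 libraries. Its whole span (100%) is overlapped by other listed genes, Slc22a14 among them, and the same holds for Cxcl10 within Art3. Neither gene could be measured in this table, and no value of theirs is used. The spans of Tlr3 and Tlr4 are each overlapped by 1 gene with 0 counts, and the other 8 receptors by none.

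The effect of anti-Notch4 treatment was examined first in the IP libraries that the study retained, 3 of control IgG and 3 of 6-3-A6. All 10 receptors had a log2 fold change below 0, as did 54.9% of the 13999 genes tested, and 3 were called lower: Tlr9, Tlr1 and Tlr2. Over all genes 4.61% were called, 2.57% higher and 2.04% lower. The 6 libraries had been chosen by the same expression values, and the p values do not account for that choice. These calls were not found with all 10 IP libraries, as given further on.

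Tlr9 (chromosome 9, 106099797 to 106104082) measured 16.8, 11.04 and 18.3 CPM in control IgG IP 2, 4 and 5 and 7.07, 3.86 and 3.79 CPM in 6-3-A6 IP 1, 3 and 4. The groups did not overlap. The log2 fold change was -1.69 (SE 0.30, adjusted p = 0.0199), and 0.429% of all genes tested ranked at or below it.

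Tlr1 (chromosome 5, 65082022 to 65090906), the partner of Tlr2 for triacylated lipoproteins, measured 40.2, 35.5 and 36.6 CPM in control IgG IP and 21.3, 14.9 and 20.4 CPM in 6-3-A6 IP, with a log2 fold change of -1.02 (SE 0.20, adjusted p = 0.0232). Tlr2 (chromosome 3, 83743579 to 83749074) measured 104, 63.3 and 92.3 CPM in control IgG IP and 56.6, 35.8 and 40.8 CPM in 6-3-A6 IP, with a log2 fold change of -0.99 (SE 0.24, adjusted p = 0.0461). For both genes each 6-3-A6 value was below each control value.

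Of the receptors that were not called, Tlr8 was at -1.03 (adjusted p = 0.0619), Tlr5 at -0.95 (adjusted p = 0.0691), Tlr13 at -0.72 (adjusted p = 0.0796), Tlr6 at -0.72 (adjusted p = 0.160) and Tlr7 at -0.78 (adjusted p = 0.173). Leaving out control IgG IP 5 gave Tlr8 a value of -0.68, and leaving out 6-3-A6 IP 4 gave Tlr7 a value of -0.51. None of these 5 was called under any such omission. Tlr13 measured 77.8, 71.4 and 72.6 CPM against 56.9, 46.3 and 34.0 CPM. The groups did not overlap, with 6-3-A6 lower, for 7 receptors (Tlr1, Tlr2, Tlr5, Tlr6, Tlr8, Tlr9 and Tlr13), which was the case for 10.7% of all genes.

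Tlr3 and Tlr4 had the values closest to 0. Their log2 fold changes were -0.05 (SE 0.23, adjusted p = 0.934) and -0.16 (SE 0.24, adjusted p = 0.777), near the median of -0.05 over all genes, and both turned above 0 when some single libraries were left out. Tlr3 measured 69.0, 44.2 and 54.7 CPM in control IgG IP and 61.6, 41.2 and 62.7 in 6-3-A6 IP.

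The values of endosomal and surface receptors overlapped. The 5 endosomal receptors had a median log2 fold change of -0.78 (range -1.69 to -0.05) with 1 called, and the 5 surface receptors -0.95 (range -1.02 to -0.16) with 2 called. DESeq2 called 6 receptors among 1251 genes, adding Tlr8, Tlr5 and Tlr13, and edgeR without the filter on low counts called 7 among 1459 genes.

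Each of the 3 calls was lost when certain single libraries were left out. Tlr9 was lost without 6-3-A6 IP 3 (-1.53, adjusted p = 0.0741) and without 6-3-A6 IP 4 (-1.54, adjusted p = 0.0614), Tlr1 without either of these, control IgG IP 2 or control IgG IP 4, and Tlr2 without either of these, control IgG IP 2 or control IgG IP 5. The directions of these 3 genes held throughout, with log2 fold changes from -2.04 to -0.80. With 6-3-A6 IP 3 left out, 9 genes were called in all.

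Markers of other cell types moved in the same 6 libraries, where 2.04% of all genes were called lower and 2.57% higher. Of 12 tested macrophage markers 7 were called lower with a median of -0.95, which includes Adgre1 at -1.39 and Csf1r at -1.23, and the summed level of the list ranged from 7032 to 8103 CPM in control IgG IP and from 3515 to 4150 CPM in 6-3-A6 IP. Of 17 endothelial markers 5 were called higher with a median of 0.86, and their summed level ranged from 1551 to 5058 CPM and from 5028 to 6310 CPM. Called lower were also 2 of 7 dendritic cell, 2 of 8 fibroblast, 2 of 6 epithelial and 1 of 3 tested B cell markers, and by edgeR 0 of 7 T cell, 0 of 5 tested plasmacytoid dendritic cell and 0 of 5 tested neutrophil markers, of which 2, 3 and 1 had an unadjusted p under 0.05 (19.5% of all genes). In 3 against 3 libraries the exact permutation test of a list mean cannot go below 0.100, and 6 of the 9 lists gave this p (0.150 adjusted over 9 lists). Their differences in mean log2 CPM were 1.14 for endothelial, -0.84 for macrophage, -0.81 for dendritic cell, -0.65 for T cell, -0.92 for fibroblast and -0.99 for epithelial markers. The endothelial difference was 0.74 without control IgG IP 4 and 1.54 without control IgG IP 2. Over all IP libraries, the endothelial difference was only 0.089 (exact permutation p = 0.913, two-sided, n = 5 per group). The left-out control IgG IP 1 and 3 had endothelial sums of 7292 and 6985 CPM, above every retained library. The left-out 6-3-A6 IP 2 and 5 had 1262 and 5036 CPM. The endothelial difference of 1.14 therefore holds for the retained libraries only. The part of these cell types in the receptor values was not tested.

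**Figure D3:**
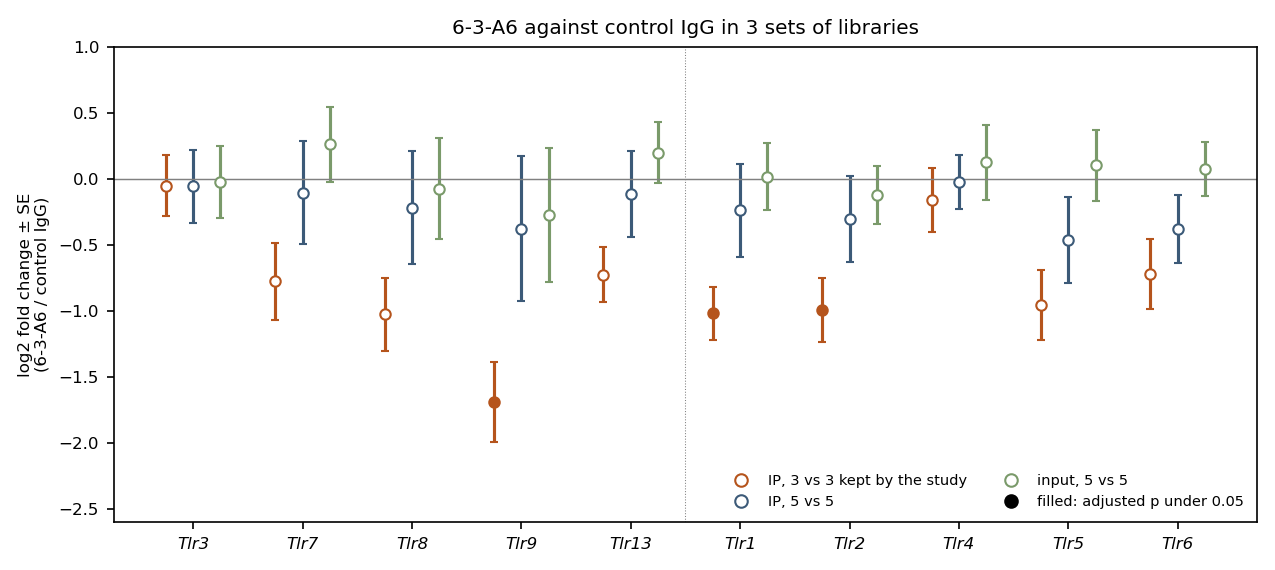
Log2 fold change of 6-3-A6 over control IgG with its SE (vertical axis) for each receptor in the 6 retained IP libraries, all 10 IP libraries and the 10 input libraries. Filled points have an edgeR adjusted p under 0.05 and occur in the first set for Tlr9, Tlr1 and Tlr2, whereas the values over all IP libraries lie between -0.46 and -0.02.

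The pathway genes moved unevenly in the retained libraries. Of 69 tested, 7 were called lower and 1 higher, where 2.04% of all genes were called lower and 2.57% higher. The 4 coreceptors and chaperones called lower were Cd180 (-1.10), Ly86 (-1.09), the endoplasmic reticulum chaperone Hsp90b1 (-0.90) and the lipopolysaccharide binding protein Lbp (-1.89, adjusted p = 0.0269). The lysosomal protease Ctss fell by 1.05 and the nuclease Pld4 by 1.21 on the log2 scale. Tlr12, a receptor for protozoan profilin outside the 10 members, fell from 3.56 ± 1.29 to 1.11 ± 0.231 CPM (SD, n = 3 each; log2 fold change -1.72, adjusted p = 0.0301). Over all 10 IP libraries its means were 3.08 and 3.20 CPM, and its log2 fold change was 0.06 (SE 0.70, adjusted p = 1), with 6-3-A6 IP 5 at 11.2 CPM.

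Unc93b1, which carries the endosomal receptors out of the endoplasmic reticulum, had a log2 fold change of -0.70 (SE 0.20, adjusted p = 0.0743). The median of 12 coreceptors and chaperones was -0.54, that of 8 endosomal proteases and nucleases was -0.85, and those of 14 kinases and ligases and of 9 transcription factors were -0.04 each, with 0 called by edgeR in either of the last groups and 1 at an unadjusted p under 0.05 in each. Nos2 was the gene called higher, from 36.3 ± 11.8 to 81.4 ± 9.63 CPM (SD, n = 3 each; log2 fold change 1.13, adjusted p = 0.0326). The 9 negative regulators had a median of 0.34 and 0 calls by edgeR, with 4 at an unadjusted p under 0.05.

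**Figure D4:**
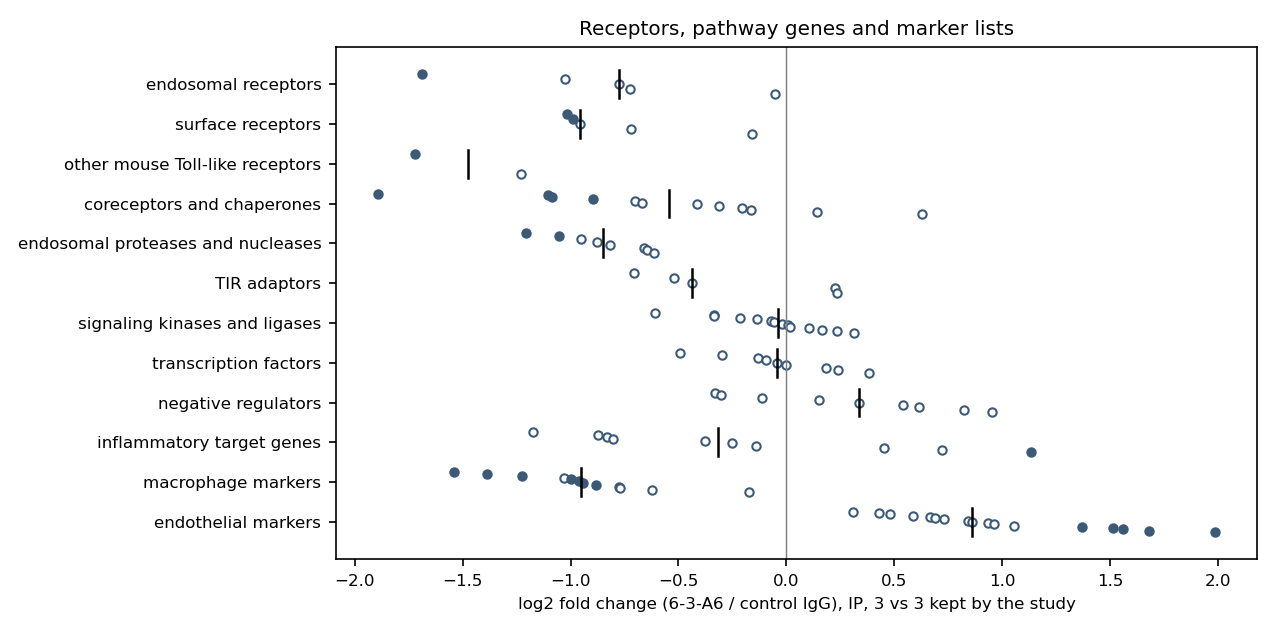
Log2 fold change of 6-3-A6 over control IgG (horizontal axis) in the 6 retained IP libraries, by group of genes, with 1 point per tested gene, a bar at the group's median and filled points at an edgeR adjusted p under 0.05. Receptors, proteases and macrophage markers lie mostly below 0, kinases and transcription factors around 0 and endothelial markers above it.

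Over all 10 IP libraries, edgeR called 0 of 13602 genes (0%), 292 (2.15%) had an unadjusted p under 0.05, with 0 receptors among them, and DESeq2 also called 0. Receptor values ranged from -0.46 (Tlr5, SE 0.33) to -0.02 (Tlr4, SE 0.20). For Tlr9, control IgG IP measured 3.26, 16.8, 7.80, 11.04 and 18.3 CPM and 6-3-A6 IP 7.07, 6.63, 3.86, 3.79 and 22.9 CPM. The highest value of all came from 6-3-A6 tumor 5 and the lowest from control IgG tumor 1, 2 libraries that the study left out.

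Tlr1 measured 20.4, 40.2, 26.97, 35.5 and 36.6 CPM in control IgG IP and 21.3, 20.6, 14.9, 20.4 and 58.6 CPM in 6-3-A6 IP. Again 6-3-A6 tumor 5 was above every control library, whereas the other 4 were at or below 21.3 CPM. Without 6-3-A6 IP 5 the log2 fold changes were -0.75 for Tlr1 (SE 0.22, adjusted p = 0.465), -1.13 for Tlr9 (SE 0.44, adjusted p = 0.602) and -0.70 for Tlr2 (SE 0.25, adjusted p = 0.541), and 0 receptors and 0 genes were called. The macrophage mean differed by -0.39 over all 10 libraries (exact permutation p = 0.175, two-sided, n = 5 per group) and by -0.61 without this library, which held the highest macrophage mean of all IP libraries, so that no p is given for the latter.

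In input, edgeR called 0 of 13683 genes (0%), and DESeq2 also called 0. The 180 genes (1.32%) whose unadjusted p was under 0.05 held 0 receptors. Receptor values ranged from -0.27 (Tlr9, SE 0.51) to 0.26 (Tlr7, SE 0.29), with 4 below and 6 above 0. Tlr1 measured 40.1, 38.4, 43.5, 53.3 and 53.6 CPM in control IgG and 33.1, 36.1, 35.4, 47.1 and 84.0 CPM in 6-3-A6 input, and the groups overlapped. The macrophage mean differed by -0.17 (exact permutation p = 0.373, two-sided, n = 5 per group).

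By the resemblance of log2 CPM over the 20 libraries, which share tumors in pairs, the 3 genes most like each receptor were named, and Pirb and Pira12 were each found for a pair of receptors. For Tlr1 they were Cd180, Cd48 and Ctsc (Pearson r 0.97, 0.97 and 0.94), for Tlr13 Pirb and C3ar1 (0.95 and 0.93), for Tlr2 Mpeg1 and Siae (0.94 and 0.91), for Tlr9 Cmklr1, Itgal and Gdf3 (0.93, 0.91 and 0.90) and for Tlr8 Itga4, Pira12 and Agtpbp1 (0.96, 0.92 and 0.89). For Tlr3 they were Adam10, Dnajc3 and Tnfsf10 (0.87, 0.87 and 0.85), and for Tlr4 Gm33989, Trpm7 and Arfgef1 (0.93, 0.92 and 0.91). Tlr7 was most like Cd274, Tnfrsf11a and Gnptab (0.92, 0.88 and 0.87), Tlr5 like Pira12, C3 and Cyp4v3 (0.92, 0.91 and 0.90) and Tlr6 like Pirb, Slc29a3 and C5ar2 (0.95, 0.92 and 0.92). These values describe the 20 libraries and were not tested.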

How the data were processed

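The authors aligned reads to the mouse genome with STAR 2.7.4a and counted them per gene with featureCounts, for which the sources name both 2.0.1 and 1.5.2. The raw counts of 20 libraries, as deposited, are whole numbers over gene spans that include introns. Strandedness and the handling of reads on overlapping genes are not given in the sources used here. The methods name mm10, while positions in the table are those of GRCm39. The normalized signal deposited by the authors for 6 IP libraries (counts divided by a DESeq2 factor) served only to identify the libraries kept. The authors' columns of fold changes, test statistics and p values were not used. The gene lengths listed in the deposited table gave the alternative per kb level, and exon lengths came from GENCODE vM21 (GRCm38).

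edgeR 4.0.16 in R 4.3.3 was used on all genes (TMM, filterByExpr, quasi-likelihood test, Benjamini-Hochberg adjustment), with genes called at an adjusted p under 0.05. IP against input had treatment as a term. CPM values were scaled by TMM factors, with a prior count of 2 for log2 CPM. DESeq2 1.42.0 was the alternative test. Marker lists were compared by two-sided exact permutation of list means. Other alternatives were DESeq2 size factors, no filter, each library left out, a block and the tumors kept by the study. Scripts were tested on simulated data.

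The receptors, 74 pathway genes, 9 marker lists and tests were chosen with earlier results of these data known. Values are named for all 10 receptors, for pathway and marker genes mainly where they were called, and for the 3 genes most like each receptor, of which 1 each for Tlr2 and Tlr13 is not reported here. IP and input of the same number come from the same tumor and are paired by animal; their deviations from group means correlated between -0.08 and 0.70. Replicates are separate tumors, and the labels give no batch.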

Additional observations from a re-analysis of the deposited data

Results flagged for a closer look

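Single libraries lay far from the 4 others of their group for 8 of 40 receptor and group pairs tested for a gap, where a single test flags about 1 in 20 by chance. The pairs are not independent, because the receptors were read in the same libraries. Most flags came from 6-3-A6 tumor 5, and no excess over chance can be read from their number. The IP library of 6-3-A6 tumor 5 was the highest of its group for Tlr9 (22.9 CPM), Tlr13 (120.5 CPM), Tlr1 (58.6 CPM) and Tlr2 (117 CPM). The input of the same tumor was the highest for Tlr9 (32.04 CPM) and Tlr1 (84.0 CPM). Its macrophage and T cell markers were also the highest of all tumors in each fraction, and their part in these values was not tested. The lowest values that stood apart were Tlr13 in control IgG IP 1 (37.2 CPM) and Tlr7 in 6-3-A6 input 2 (36.9 CPM).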

How the results depend on the processing

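DESeq2 size factors changed no receptor call in any comparison. With the 6 retained IP libraries, DESeq2 called 1251 genes and 6 receptors and edgeR without the low-count filter 1459 and 7, and leaving out single libraries gave 9 to 653 genes and 0 to 3 receptors. In IP against input, the block on tumor gave 9 receptors in all tumors, 3 receptors among 3249 genes in control IgG tumors and 7 in 6-3-A6 tumors, and the 6 retained tumors gave 3 receptors among 3347 genes. Leaving out single libraries gave 0 receptors among 1088 to 2385 genes in control IgG tumors and 1 to 6 receptors among 2865 to 4227 genes in 6-3-A6 tumors. Marker differences without single libraries ranged from -0.25 to 0.49 for endothelial and -0.61 to -0.29 for macrophage markers in all IP libraries, and from -0.34 to -0.089 for macrophage markers in input.

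Several uncalled treatment values changed sign. With single libraries left out, Tlr3 ranged from -0.16 to 0.17 and Tlr4 from -0.29 to 0.024 in the retained libraries. Over all IP libraries Tlr13 ranged from -0.52 to 0.045, Tlr3 from -0.28 to 0.12, Tlr4 from -0.14 to 0.11, Tlr7 from -0.54 to 0.085 and Tlr8 from -0.48 to 0.12. In input Tlr1 ranged from -0.29 to 0.12, Tlr2 from -0.30 to 0.010, Tlr3 from -0.18 to 0.097, Tlr4 from -0.022 to 0.39, Tlr5 from -0.068 to 0.24, Tlr6 from -0.041 to 0.16, Tlr8 from -0.31 to 0.31 and Tlr9 from -0.80 to 0.059. Tlr1 in input was -0.021 without the filter, and with only the retained tumors Tlr1, Tlr4 and Tlr6 in input were -0.37, -0.061 and -0.024. The causes were not tested.

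The replicate number pairs no tumors across treatments (same-numbered deviations correlated between -0.33 and 0.37). As a block it called 0 genes in all IP libraries and in input and gave Tlr3, Tlr8 and Tlr1 in input 0.065, 0.18 and -0.054. The retained libraries share 1 number, so that no block could be fitted there.

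Divided by the listed length, control IgG IP levels in CPM per kb were 13.6 (Tlr2), 3.83 (Tlr13), 3.74 (Tlr3), 3.59 (Tlr1), 1.78 (Tlr8), 1.40 (Tlr7), 1.05 (Tlr6), 0.976 (Tlr4) and 0.386 (Tlr5), with Tlr9 at 2.67. By this length, a choice made after seeing the data for the shares, endosomal receptors made up 40.5% (control IgG input), 40.4% (control IgG IP), 43.5% (6-3-A6 input) and 42.9% (6-3-A6 IP). All 10 receptors had read counts of at least 45 in every library.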

Other observations

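Tlr11 and Tlr12, receptors for protozoan profilin, were low in most libraries. Tlr11 lay between 0.304 and 2.89 CPM over the 20 libraries. Tlr12 reached 12.2 CPM in the input and 11.2 CPM in the IP of 6-3-A6 tumor 5, and at most 4.66 CPM elsewhere. Trim30a, a negative regulator of this pathway, varied from 49.3 to 1783 CPM in 6-3-A6 input and from 71.9 to 793 CPM in control IgG input, and from 71.9 to 235 CPM over the IP libraries of both groups.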
